A study of Mus musculus with 8 samples.

Results

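The 9 genes of the estrogen-related receptors (ERR: Esrra, Esrrb, Esrrg), the peroxisome proliferator-activated receptors (PPAR: Ppara, Ppard, Pparg) and the retinoid X receptors (RXR: Rxra, Rxrb, Rxrg) are described here through H3K27ac, a histone mark of active promoters and enhancers. They were chosen as nuclear receptor partners of the coactivator PGC-1, out of 21631 protein-coding genes on the chromosomes of the data. Their loci were the gene bodies with 20 kb on each side on the mouse build mm10. These loci held 362 of 253423 distinct intervals in the peak list from EnPGC-1-treated cells and 155 of 81522 in the list from DMSO-treated cells. All cells were primary CD8+ T cells purified from the spleen and lymph nodes of C57BL/6 mice, stimulated with antibodies against CD3 and CD28, and kept for 48 h with EnPGC-1, a compound the labels class among PIPs, or with the vehicle DMSO. Each treatment had 2 H3K27ac samples and 1 input, and 2 IgG samples came from DMSO-treated cells. The values used here are 1 list of peaks per treatment, which leaves no replicate spread and no test of a difference between the treatments. Below, values with EnPGC-1 and with DMSO are those of the corresponding list. Sequencing depth per sample is unknown here. The labels used here do not say how old the mice were, which sex they had or whether animals were pooled. In a bulk population, fewer marked cells and less signal per cell cannot be told apart.

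Nuclear receptors are transcription factors, many of which respond to small lipophilic ligands. ERRs are orphan receptors that bind DNA and act without a classical ligand and, with PGC-1, are known to switch on genes of the respiratory chain and the citric acid cycle. PPARs bind fatty acids and their derivatives, pair with an RXR on DNA and recruit PGC-1 to genes of fatty acid oxidation and storage. RXRs are the shared partners of PPARs, retinoic acid receptors, liver X receptors, thyroid hormone receptors and the vitamin D receptor.

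H3K27ac intervals covered more of all 9 loci with EnPGC-1 than with DMSO, and the receptors differed widely among themselves. Rxra, Rxrb and Ppard had the most coverage with EnPGC-1, with 55.2%, 49.3% and 48.6% of the locus, and Pparg and Esrrg the least, with 3.73% and 4.86%. With DMSO Rxrb led with 22.5%, ahead of Rxra with 18.1% and Ppard with 14.0%, and Pparg again came last with 0.396%. The median of the 9 loci was 26.3% with EnPGC-1 and 7.26% with DMSO, beside medians over all protein-coding genes of 8.37% with EnPGC-1 and 1.99% with DMSO. More coverage with EnPGC-1 is the rule across the genome, since 93% of all protein-coding loci showed it and 1.51% showed the reverse, as none of the 9 did. Any interval at all was present at all 9 loci with either treatment, beside 94.1% of protein-coding loci with EnPGC-1 and 81.1% with DMSO. The receptor loci together took up 0.177% of all covered bases of the EnPGC-1 list and 0.212% of those of the DMSO list.

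**Figure D1:**
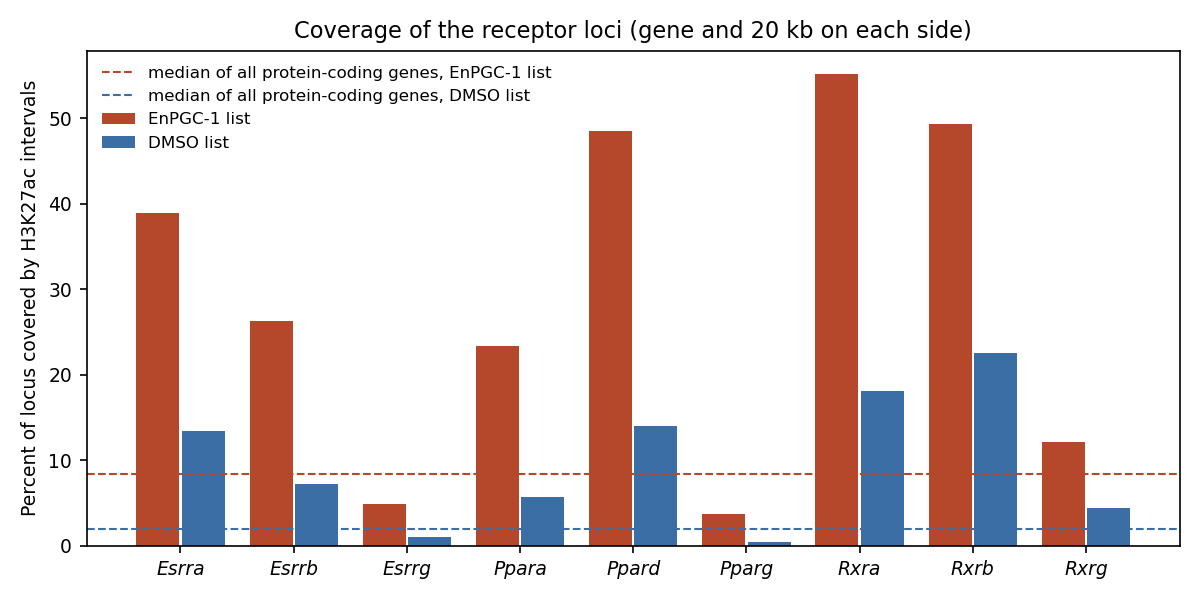
Percent of each receptor locus (gene and 20 kb on each side) covered by H3K27ac intervals (vertical axis) with EnPGC-1 (left bar) and the DMSO list (right bar), without error bars because each treatment has 1 list. Dashed lines mark the medians of all protein-coding genes, 8.37% with EnPGC-1 and 1.99% with DMSO, and Esrrg and Pparg lie below both.

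Among the ERR genes, coverage was highest at Esrra and lowest at Esrrg in both lists. Esrra encodes ERR alpha, the ERR best known for driving mitochondrial genes together with PGC-1 alpha, and lies on chromosome 19 from 6910977 to 6922048. Its locus held 20 EnPGC-1 intervals and 10 DMSO intervals, which covered 39.0% of it with EnPGC-1 and 13.5% with DMSO. All 10 DMSO intervals met EnPGC-1 signal. The gene is short and its surroundings are crowded: starts of Prdx5, Trmt112, Catsperz, Kcnk4, Gpr137 and Bad lay within 20 kb, and 4 EnPGC-1 and 3 DMSO intervals sat at those starts and not at that of Esrra. The leading EnPGC-1 interval by score, from 6924698 to 6926480, lay at the start of Catsperz, a gene for a subunit of a sperm calcium channel. Inside the body of Esrra away from its start there were 3 EnPGC-1 intervals and 2 DMSO intervals. Intervals shared with neighbours cannot be assigned to Esrra.

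Esrrb encodes ERR beta, known for its role in the self-renewal of mouse embryonic stem cells. It lies on chromosome 12 from 86361117 to 86521628, and no annotated start of another gene fell within its locus. The locus held 77 EnPGC-1 intervals, the most of the 9, against 27 DMSO intervals, and 26.3% of it was covered with EnPGC-1 and 7.26% with DMSO. Both values lie well above the medians of all genes. With EnPGC-1 58 of the 77 intervals lay in the gene body away from its starts, and with DMSO 23 of 27. The highest-scoring EnPGC-1 interval, from 86421669 to 86423668, began 25 bp after the second annotated start and overlapped a DMSO interval. Its score stood at rank 2595 of the list, ties included. The highest-scoring DMSO interval, from 86430267 to 86430715, lay in the gene body and overlapped no EnPGC-1 interval.

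Esrrg encodes ERR gamma, a receptor of heart, muscle and brain with high constitutive activity. It is the longest of the 9 genes, from 187608510 to 188214885 on chromosome 1. Its locus held 66 EnPGC-1 intervals and 17 DMSO intervals, spread thinly over 4.86% of the bases with EnPGC-1 and 1.05% with DMSO. By number of EnPGC-1 intervals Esrrg was second of the 9, whereas by coverage it was eighth. The leading EnPGC-1 interval of the locus, from 187608572 to 187610706, was also its widest, spanned the first annotated start and had no DMSO counterpart. The leading DMSO interval, from 188009923 to 188010224, lay about 401 kb into the gene and overlapped an EnPGC-1 interval.

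Among the PPAR genes, Ppard held the most intervals and Pparg the fewest. Ppard encodes PPAR delta, the broadly expressed PPAR that activates fatty acid oxidation, and lies on chromosome 17 from 28232754 to 28301469. Its locus had 47 EnPGC-1 intervals and 27 DMSO intervals, covering 48.6% with EnPGC-1 and 14.0% with DMSO. Intervals followed each other along the whole gene with EnPGC-1, with a median width of 1056 bp, the largest of the 9 loci, against 561 bp with DMSO. The widest, 3276 bp from 28278418 to 28281693, combined 6 summits and overlapped DMSO signal, whereas the highest-scoring, from 28240974 to 28242657, did not. Of the 27 DMSO intervals, 8 had no EnPGC-1 counterpart, among them an interval at 28235595 to 28235973 just inside the gene. The start of Fance, a DNA repair gene, lay within the locus and had an EnPGC-1 interval.

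Ppara encodes PPAR alpha, the receptor known for the fasting response of the liver, and lies on chromosome 15 from 85734910 to 85806851. Its locus held 37 EnPGC-1 intervals and 13 DMSO intervals, and 23.4% was covered with EnPGC-1 and 5.71% with DMSO. The highest-scoring EnPGC-1 interval at any of the 9 loci lay here, in the gene body from 85797733 to 85798216, at rank 834 of its list, and overlapped no DMSO interval. All DMSO intervals but 1 met EnPGC-1 signal. The start of Cdpf1, 4.85 kb from the gene, lay within the locus and was marked in both lists.

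Pparg encodes PPAR gamma, the regulator of fat cell differentiation that also acts in macrophages and regulatory T cells of fat. On chromosome 6 from 115360879 to 115490404, its locus held 10 EnPGC-1 intervals and 2 DMSO intervals, on 3.73% of the bases with EnPGC-1 and 0.396% with DMSO. It had the lowest coverage of the 9 in both lists. Only 1 of the 10 EnPGC-1 intervals met DMSO signal, in the gene body about 40.1 kb from the first start. From there on neither list held an interval until 116 kb beyond the first start, and 6 of the EnPGC-1 intervals lay beyond the end of the gene. The other DMSO interval, from 115503742 to 115504037, had a score at rank 1081 of 81522 and no EnPGC-1 counterpart. The covered bases of Pparg gave the largest EnPGC-1 to DMSO ratio of the 9, 9.42, but the DMSO side of that ratio is 672 bases.

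Among the RXR genes, Rxra and Rxrb were the most densely covered of the 9 loci with DMSO too, and Rxrg had far less. Rxra encodes RXR alpha, the main RXR of liver, skin and many other tissues, and lies on chromosome 2 from 27676445 to 27763319. Its locus held 63 EnPGC-1 intervals and 36 DMSO intervals, covering 55.2% with EnPGC-1 and 18.1% with DMSO. Of the 36 DMSO intervals, 35 met EnPGC-1 signal. Most intervals lay in the gene body, 41 with EnPGC-1 and 31 with DMSO, and the locus held no annotated start of another gene. Its EnPGC-1 coverage was above that of 99.5% of all protein-coding loci, and its DMSO coverage above that of 99.2%.

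Rxrb encodes RXR beta, a widely expressed RXR, and lies in the major histocompatibility complex on chromosome 17 from 34031812 to 34038403. Its locus held 23 EnPGC-1 intervals and 16 DMSO intervals, covering 49.3% with EnPGC-1 and 22.5% with DMSO. The DMSO value was the highest of the 9 and above that of 99.9% of all protein-coding loci. The EnPGC-1 to DMSO ratio of covered bases was the lowest of the 9, at 2.19. The widest interval of all 9 loci, 4289 bp with 5 summits from 34036133 to 34040421, ran over the end of Rxrb and the start of the collagen gene Col11a2. Starts of Slc39a7, H2-Ke6 and Ring1 were also marked in both lists within 20 kb of this short gene, so the marked bases cannot be assigned to Rxrb alone. No EnPGC-1 interval and 2 DMSO intervals lay in the body of Rxrb away from every start. Wider EnPGC-1 intervals that reached within 1 kb of a start overlapped both of these DMSO intervals. Over the gene body without flanks, coverage was 59.2% with EnPGC-1 and 37.7% with DMSO.

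Rxrg encodes RXR gamma, an RXR of muscle and brain, and lies on chromosome 1 from 167598362 to 167639623. Its locus held 19 EnPGC-1 intervals and 7 DMSO intervals, and 12.1% was covered with EnPGC-1 and 4.43% with DMSO. These values lie near the middle of all protein-coding loci, at percentiles 59.2 with EnPGC-1 and 69.4 with DMSO. The highest-scoring EnPGC-1 interval, in the gene body from 167627290 to 167627661, had no DMSO counterpart. Of the 7 DMSO intervals, 3 had no EnPGC-1 counterpart.

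**Figure D2:**
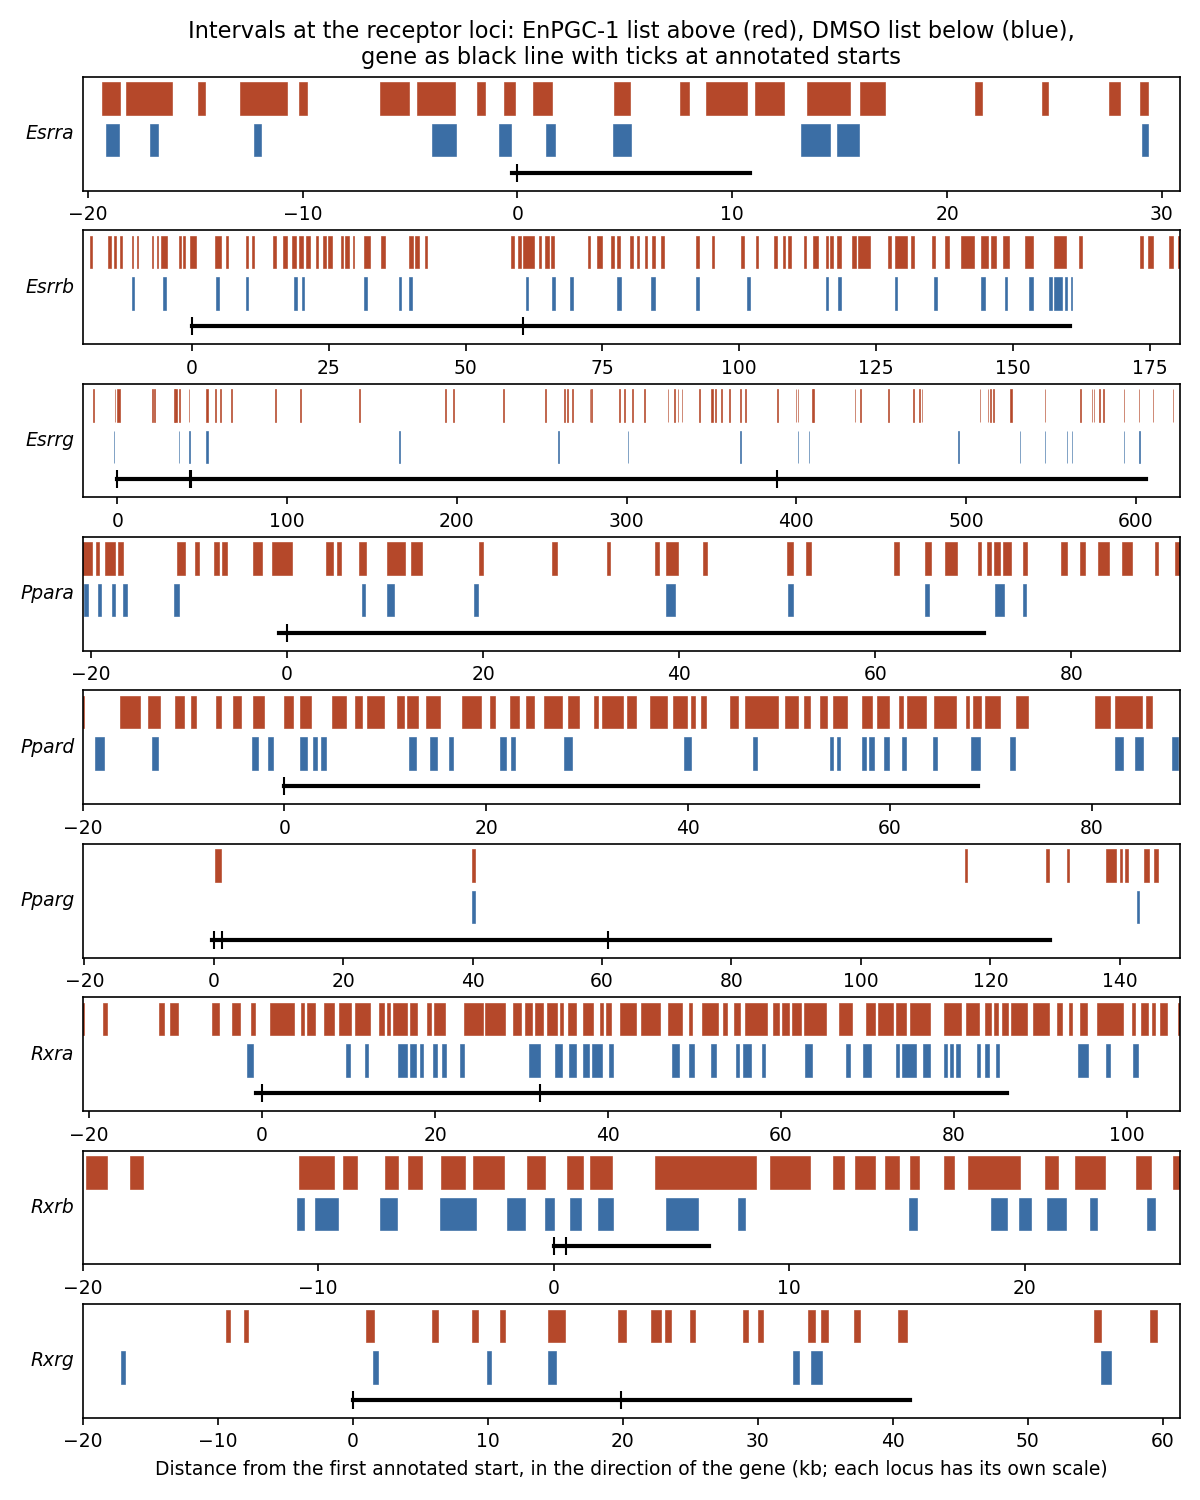
Intervals of the EnPGC-1 list (upper row, red) and the DMSO list (lower row, blue) at the 9 receptor loci, drawn to scale against the distance from the first annotated start in kb (horizontal axis, a separate scale per locus), with the gene as a black line and ticks at its starts. Rxra and Ppard are marked along their length, whereas Pparg has an empty stretch in both lists.

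All 9 receptor genes had an EnPGC-1 interval within 1 kb of an annotated start, where 67.3% of all protein-coding genes with an annotated start did. With DMSO 5 of the 9 genes had one, Esrra, Esrrb, Esrrg, Rxra and Rxrb, beside 33.5% of all genes. The 4 genes with a start interval with EnPGC-1 alone were all 3 PPAR genes and Rxrg, beside 36.8% of all genes. With 2500 bp on each side of the start, 9 genes were marked with EnPGC-1 and 7 with DMSO, which leaves Ppara and Pparg with EnPGC-1 alone. With 500 bp on each side, the counts were 9 with EnPGC-1 and 4 with DMSO. Shares of all genes were computed for the 1 kb window only, so the counts at 500 and 2500 bp have no background. Within 1 kb none of the 9 had one with DMSO alone, beside 3.09% of all genes. Of the 9 genes, 6 have more than 1 annotated start, and genes with 2 or more starts were marked more often in general, 82.3% of them with EnPGC-1 and 48% with DMSO. Counted by start, 17 of 18 receptor starts had an EnPGC-1 interval within 1 kb and 7 had a DMSO interval, beside 66.7% of all 21045 starts with EnPGC-1 and 32.2% with DMSO.

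An interval within 1 kb did not always hold the start itself. The first base of the transcript was inside an EnPGC-1 interval at 7 of the 18 receptor starts and inside a DMSO interval at 2, and over all starts at 38.6% with EnPGC-1 and 13.5% with DMSO. At the first start of Rxra, in the promoter richest in CpG of the 18, the nearest EnPGC-1 bases were 788 bp away and the nearest DMSO bases 1020 bp away. At the first start of Rxrg the only EnPGC-1 interval within 1 kb began 965 bp downstream, so this gene's call rests on 36 bases there, but its second start lay inside an EnPGC-1 interval. The third start of Pparg had no interval within 20 kb in either list. The single Ppara start lay inside an EnPGC-1 interval of 2011 bp with 4 summits, and its nearest DMSO interval was 7667 bp away. The Ppard start lay 45 bp inside its EnPGC-1 interval, and a DMSO interval ended 1165 bp upstream, just outside the window.

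**Figure D3:**
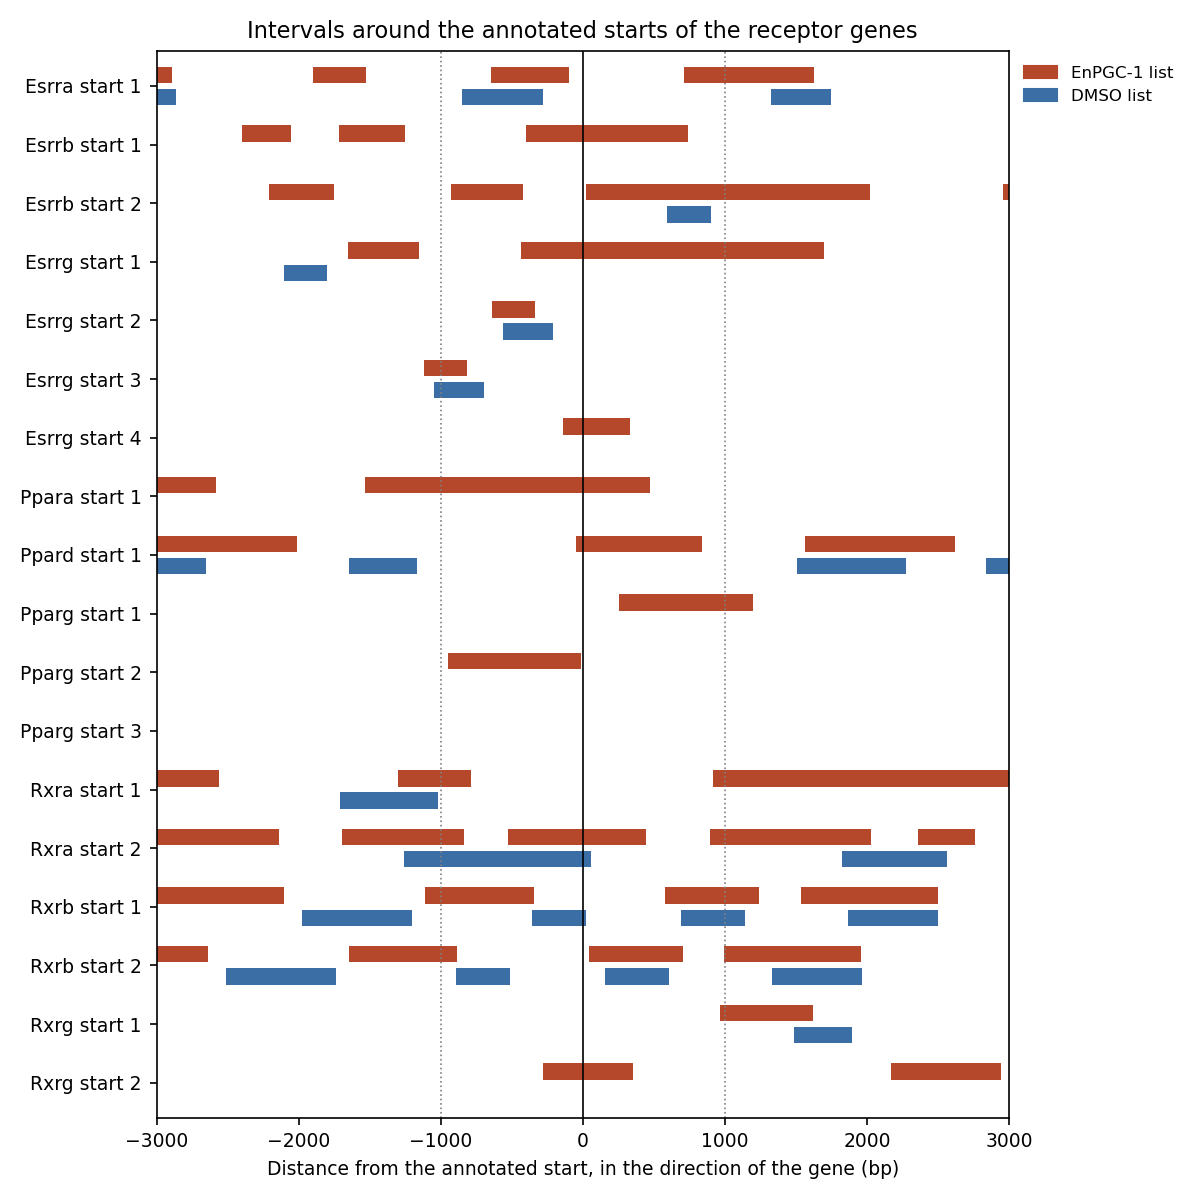
Intervals of the EnPGC-1 list (upper row of each start, red) and the DMSO list (lower row, blue) within 3000 bp of the 18 annotated starts of the receptor genes, with the distance from the start in bp on the horizontal axis. Dotted lines bound the 1 kb window, within which 17 starts have an EnPGC-1 interval and 7 a DMSO interval.

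The promoter sequences show where the marked bases begin and end at 4 of these starts. They run from 250 bases before to 50 after the start, 5′ to 3′ on the strand of the gene, and come from RefSeq on GRCm38.p6, the assembly of mm10, which held all 18 starts. Capitals mark bases inside an EnPGC-1 interval for Esrra (chr19:6921759-6922058, minus strand), Ppard (chr17:28232504-28232803, plus strand) and Esrrg (start 4, chr1:187997577-187997876, plus strand). In Rxrb (chr17:34031562-34031861, plus strand, first start) capitals mark bases inside a DMSO interval, because no EnPGC-1 interval covered this promoter.
Esrra: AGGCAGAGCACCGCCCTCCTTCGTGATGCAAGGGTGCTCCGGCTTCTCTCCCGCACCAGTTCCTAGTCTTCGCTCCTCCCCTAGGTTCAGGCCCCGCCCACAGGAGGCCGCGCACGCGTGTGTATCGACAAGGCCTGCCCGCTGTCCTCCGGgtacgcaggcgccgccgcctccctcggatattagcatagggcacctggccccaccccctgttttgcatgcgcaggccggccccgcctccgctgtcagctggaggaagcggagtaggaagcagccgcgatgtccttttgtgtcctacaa
Ppard: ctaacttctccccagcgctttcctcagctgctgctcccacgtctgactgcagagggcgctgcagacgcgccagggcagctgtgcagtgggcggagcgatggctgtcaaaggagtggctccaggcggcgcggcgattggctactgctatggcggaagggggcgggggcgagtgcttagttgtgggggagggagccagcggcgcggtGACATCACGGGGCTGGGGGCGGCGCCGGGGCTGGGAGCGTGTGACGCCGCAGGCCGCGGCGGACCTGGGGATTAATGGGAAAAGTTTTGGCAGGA
Esrrg: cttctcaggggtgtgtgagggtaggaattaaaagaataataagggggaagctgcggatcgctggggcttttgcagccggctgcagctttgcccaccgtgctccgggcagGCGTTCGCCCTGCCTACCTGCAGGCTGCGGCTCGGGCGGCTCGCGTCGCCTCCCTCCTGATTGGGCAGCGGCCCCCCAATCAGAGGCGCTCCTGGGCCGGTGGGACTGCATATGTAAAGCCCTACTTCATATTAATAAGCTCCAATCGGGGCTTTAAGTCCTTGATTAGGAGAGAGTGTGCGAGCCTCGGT
Rxrb: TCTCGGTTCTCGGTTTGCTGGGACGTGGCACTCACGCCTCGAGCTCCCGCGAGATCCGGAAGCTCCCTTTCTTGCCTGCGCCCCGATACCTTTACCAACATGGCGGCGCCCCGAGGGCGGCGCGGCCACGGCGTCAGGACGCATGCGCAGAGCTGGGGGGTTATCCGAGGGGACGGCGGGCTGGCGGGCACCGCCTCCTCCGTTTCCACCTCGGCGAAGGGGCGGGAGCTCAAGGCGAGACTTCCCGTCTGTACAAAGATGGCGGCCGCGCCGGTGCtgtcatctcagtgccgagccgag

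The Esrra promoter was marked over its upstream 152 bases with EnPGC-1, and the interval stopped 99 bp short of the start. The DMSO interval there lay further upstream, 283 bp from the start, and overlapped the EnPGC-1 interval. The Ppard promoter was covered over its last 95 bases, and the Esrrg promoter over its last 191. At Rxrb the DMSO interval covered 277 of 300 bases and ended 26 bp after the start, whereas the nearest EnPGC-1 interval ended 346 bp before it and touched the DMSO interval only at its edge. Further downstream another pair of intervals overlapped, and the gene counts as marked with either treatment.

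The promoters of the 9 genes ranged from 1 to 55 CpG, with a median of 17.5 beside 13 over all promoters. Across the genome, starts with the fewest CpG were marked least, and marking did not keep rising with CpG. An EnPGC-1 interval lay within 1 kb of 32.4% of the starts with 0 to 4 CpG, 72.9% of those with 5 to 13, 83.7% of those with 14 to 25 and 82.3% of those with 26 to 67. A DMSO interval did so at 12.8%, 34.3%, 44.3% and 39.7% of these starts, in the same order of CpG. Of the 18 receptor starts, 16 had more than 4 CpG and all 16 had an EnPGC-1 interval. The part of base composition in the counts at starts was not tested.

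The response element of ERRs, TCAAGGTCA, and the direct repeat bound by PPAR with RXR, which is 2 copies of AGGTCA 1 base apart, were searched on both strands. Neither was found in the 18 promoters, the repeat not even with 1 mismatch. They were rare everywhere, with the ERR element in 0.337% of all promoters and the repeat in 0.0475%, or 0.485% with up to 1 mismatch. The single AGGTCA, which is part of both, was present in 4 of the 18 promoters beside 14.6% of all. The 4 were the first and second starts of Pparg and the second starts of Rxra and Rxrg. The last pair is shown because both starts lay inside EnPGC-1 intervals, with capitals marking AGGTCA or its reverse complement. They lie at chr2:27709042-27709341 and chr1:167618015-167618314, both on the plus strand.
Rxra: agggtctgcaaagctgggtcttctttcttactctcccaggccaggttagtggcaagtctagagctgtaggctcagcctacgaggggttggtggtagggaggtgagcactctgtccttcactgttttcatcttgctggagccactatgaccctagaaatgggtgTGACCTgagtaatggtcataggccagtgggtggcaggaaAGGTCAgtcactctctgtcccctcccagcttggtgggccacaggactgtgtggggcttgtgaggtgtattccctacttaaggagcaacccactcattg
Rxrg: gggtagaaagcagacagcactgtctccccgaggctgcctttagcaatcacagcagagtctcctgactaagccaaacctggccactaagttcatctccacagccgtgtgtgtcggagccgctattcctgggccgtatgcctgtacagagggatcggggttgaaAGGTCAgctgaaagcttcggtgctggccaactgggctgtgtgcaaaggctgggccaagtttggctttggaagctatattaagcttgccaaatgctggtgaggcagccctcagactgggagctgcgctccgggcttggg

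In Rxra the matches began 87 and 48 bases before the start, the first in reverse, and intervals of both lists covered the whole promoter. In Rxrg the match began 88 bases before the start, and the EnPGC-1 list alone covered the promoter. A match is a stretch of letters and does not show binding.

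Most EnPGC-1 intervals at the receptor loci lay where the DMSO list had none, whereas most DMSO intervals lay where the EnPGC-1 list also had one. Of 362 EnPGC-1 intervals, 119 shared 1 bp or more with the DMSO list, which is 32.9% (exact Clopper-Pearson 95% interval for counting error only, 28.1 to 38.0), beside 23.1% of the whole EnPGC-1 list. Of 155 DMSO intervals, 126 did so with the EnPGC-1 list, 81.3% (74.2 to 87.1), beside 73.7% of the whole DMSO list. Over all protein-coding loci the shares were 24.9% of EnPGC-1 and 75.1% of DMSO intervals. Pooled by family, the RXR loci had the highest shares, 47.6% of their EnPGC-1 and 91.5% of their DMSO intervals. The ERR loci had the lowest, 23.3% of their EnPGC-1 and 74.1% of their DMSO intervals. Loci within a family differed. The share of DMSO intervals was 100% at Esrra, 81.5% at Esrrb and 47.1% at Esrrg, and 97.2% at Rxra, 93.8% at Rxrb and 57.1% at Rxrg. These shares were not adjusted for how much of a locus was covered. Over the 9 loci, the share of DMSO intervals depended on list size: it was 36.8% with lists equal in number and 24.5% with lists equal in covered bases. Neighbouring intervals within a locus are not independent, so these ranges are too narrow for a comparison of loci.

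Pooled, the receptor loci also held wider intervals with more summits with EnPGC-1, though the ERR loci did not exceed protein-coding loci in this. The median width was 609.5 bp with EnPGC-1 and 468 bp with DMSO, beside 523 bp with EnPGC-1 and 440 bp with DMSO over all protein-coding loci. More than 1 summit was listed in 115 of 362 EnPGC-1 intervals and in 7 of 155 DMSO intervals, which is 31.8% with EnPGC-1 and 4.52% with DMSO, beside 23.1% with EnPGC-1 and 3.76% with DMSO over all protein-coding loci. By family with EnPGC-1, the median width was 472 bp at the ERR, 764 bp at the PPAR and 756 bp at the RXR loci. More than 1 summit was listed in 21.5%, 38.3% and 41.9% of their EnPGC-1 intervals, in the same order. Loci within a family differed in width. The median with EnPGC-1 was 779.5 bp at Esrra and 555 bp at Esrrb, above the 523 bp of protein-coding loci, but 382 bp at Esrrg. Pparg with 489 bp and Rxrg with 461 bp also lay below 523 bp, and the other PPAR and RXR loci above it. Scores read as -log10 of a q-value reached 10.1 at the receptor loci with EnPGC-1 and 5.28 with DMSO, far below the highest in the whole lists, 541 with EnPGC-1 and 179 with DMSO. The best rank of an interval at the 9 loci was 834 with EnPGC-1, at Ppara, and 1016 with DMSO, at Rxrb.

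As a ratio, the excess of the EnPGC-1 list summed over the receptor loci was below its excess over the genome. The median difference in coverage, in contrast, was above that of all genes with the lists as deposited. This median, EnPGC-1 minus DMSO, was 19.1 percentage points over the 9 loci and 6.23 over all protein-coding genes. Esrrg with 3.80 and Pparg with 3.34 lay below the median of all genes. Summed over the 9 loci, the EnPGC-1 list covered 292237 bases and the DMSO list 87519, a ratio of 3.34, beside 4.00 for the whole lists and 3.88 over all protein-coding loci. The ratio of interval numbers was 2.34, beside 3.11 for the whole lists. By family the ratio of covered bases was 3.69 for the ERR, 3.83 for the PPAR and 2.77 for the RXR loci. Only Esrrg, Ppara and Pparg, with 4.62, 4.10 and 9.42, lay above the ratio of the whole lists, as did 43.8% of protein-coding loci with DMSO coverage.

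How much of the difference remained depended on how the lists were matched. With equal numbers of highest-scoring intervals, 8 of 9 loci still had more coverage with EnPGC-1, beside 65.9% of all protein-coding loci. This matching removes EnPGC-1 intervals scoring below 4.21 and the narrower of those tied at 4.21. Pparg had less, as did 23.3% of all, with 0.166% with EnPGC-1 against 0.396% with DMSO. An EnPGC-1 interval of 512 bp at Pparg was tied at 4.21 and removed. The sign at Pparg therefore rests on how the tie was broken. The median difference was then 4.76 percentage points over the 9 loci and 0.855 over all genes. When the EnPGC-1 list was instead reduced to its highest-scoring intervals with no more covered bases than the DMSO list, 3 of 9 loci had more coverage with EnPGC-1, beside 41.5% of all protein-coding loci. These were Ppard with 20.4% with EnPGC-1 against 14.0% with DMSO, Ppara with 8.02% with EnPGC-1 against 5.71% with DMSO, and Esrrg with 1.24% with EnPGC-1 against 1.05% with DMSO. The other 6 had less, as did 45.7% of all protein-coding loci, among them Rxra with 14.3% with EnPGC-1 against 18.1% with DMSO. The sum over the 9 loci was then 89105 bases with EnPGC-1 and 87519 with DMSO. With equal covered bases the median difference was -0.396 percentage points over the 9 loci and 0 over all genes. This last matching was added after the values had been seen.

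**Figure D4:**
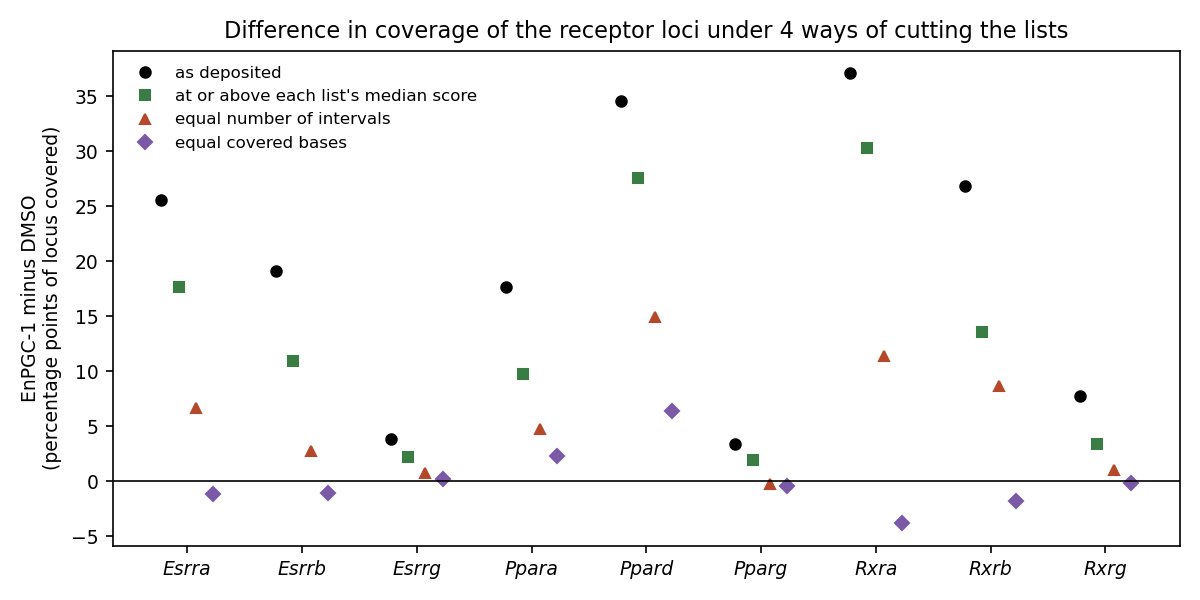
Difference in percent of locus covered, EnPGC-1 minus DMSO (vertical axis, percentage points), for each receptor gene with the lists as deposited, at or above each list's own median score, equal in number of intervals, and equal in covered bases. With equal covered bases the differences lie between -3.82 at Rxra and 6.39 at Ppard.

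At equal numbers of intervals, 5 of 9 receptor genes had a start interval in each list, beside 30.1% of all genes with EnPGC-1 and 33.5% with DMSO. Rxrg was marked with EnPGC-1 alone and Esrra with DMSO alone, beside 14.8% of all genes marked with EnPGC-1 alone and 18.2% with DMSO alone. The start intervals of the 3 PPAR genes all scored below 4.21 and were absent from the reduced EnPGC-1 list.

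Of the 9 receptor loci, 7 had more coverage than the region around them with either treatment, and Ppara and Pparg had less. Surroundings were measured for the 9 loci only, so the share of all protein-coding loci above theirs is unknown here. Within 500 kb on each side of the locus, the locus itself left out, intervals covered 33.6% with EnPGC-1 and 9.83% with DMSO around Rxra, and 3.68% with EnPGC-1 and 0.838% with DMSO around Esrrg. Rxrb and Pparg departed from their surroundings in opposite directions. Around Rxrb the coverage was 13.6% with EnPGC-1 and 3.90% with DMSO, beside 49.3% with EnPGC-1 and 22.5% with DMSO in its locus. Around Pparg it was 17.5% with EnPGC-1 and 6.42% with DMSO, beside 3.73% with EnPGC-1 and 0.396% with DMSO in its locus. Ppara also lay below its surroundings, which had 34.3% with EnPGC-1 and 11.0% with DMSO. The ratio of coverage between the lists around the 9 loci ranged from 2.73 at Pparg to 4.47 at Rxrg.

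Among all 49 nuclear receptor genes listed, Rxra, Rxrb and Ppard ranked 1, 2 and 3 by coverage with EnPGC-1. With DMSO Rxrb ranked 1, Rxra 2 and Ppard 4, behind Nr4a1, an immediate early gene of T cell receptor signalling. With EnPGC-1 Esrra ranked 8, Esrrb 14, Ppara 17, Rxrg 25, Esrrg 36 and Pparg 38, and with DMSO they ranked 5, 14, 18, 21, 37 and 43. The 40 other receptors had median coverage of 9.78% with EnPGC-1 and 2.62% with DMSO. All 40 had more with EnPGC-1, as did 93% of all protein-coding loci. Of the 34 with an annotated start, 30 were marked there with EnPGC-1 and 15 with DMSO, beside 67.3% and 33.5% of all genes. With equal numbers of intervals, Nr1h2, Nr2f6 and Rara had larger differences than any of the 9, at 19.1, 18.3 and 17.3 percentage points against 14.9 at Ppard. As deposited, Rara, a retinoic acid receptor gene, had 43.9% of its locus covered with EnPGC-1 and 11.1% with DMSO, and the smallest difference, 0.263 percentage points, was at Nr0b1, an orphan receptor gene.

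The receptor outside the 9 nearest to a family was chosen by the Euclidean distance between its coverage in the 2 lists and the family's median coverage, over 40 receptors. Nr2f6, an orphan receptor with 44.2% with EnPGC-1 and 11.3% with DMSO, was nearest to the RXR median of 49.3% with EnPGC-1 and 18.1% with DMSO, at 8.50 percentage points. Nr2e1, an orphan receptor of neural stem cells with 24.1% with EnPGC-1 and 6.29% with DMSO, was nearest to both the ERR median of 26.3% with EnPGC-1 and 7.26% with DMSO and the PPAR median of 23.4% with EnPGC-1 and 5.71% with DMSO, at 2.46 and 0.895 percentage points. Likeness over 2 lists is a weak measure.

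**Figure D5:**
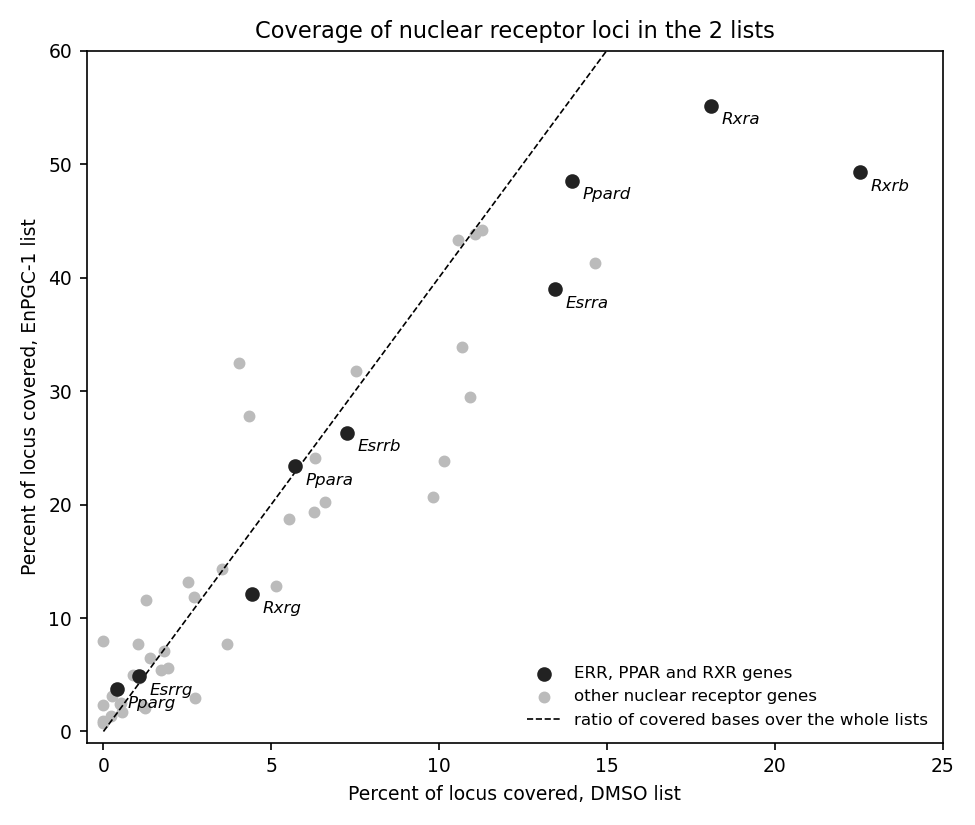
Percent of locus covered with EnPGC-1 (vertical axis) against the DMSO list (horizontal axis) for the 9 ERR, PPAR and RXR genes (black, named) and 40 other nuclear receptor genes (grey). The dashed line has the slope of the ratio over the whole lists, 4.00, and 6 of the 9 lie below it.

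Lists of genes that work with these receptors or under them had lower median coverage than the 9 receptors. The coactivator genes Ppargc1a, Ppargc1b and Pprc1 had 2.21%, 24.5% and 25.7% of the locus covered with EnPGC-1 and 0.693%, 6.54% and 5.74% with DMSO. The 15 coregulator genes had medians of 5.97% with EnPGC-1 and 1.99% with DMSO. Prmt1, which encodes an arginine methyltransferase, had 33.1% with EnPGC-1 and 12.8% with DMSO, and Tbl1x, a corepressor subunit gene, 1.40% with EnPGC-1 and 0.158% with DMSO. The 25 PPAR target genes had medians of 8.65% with EnPGC-1 and 2.43% with DMSO. All 25 had more coverage with EnPGC-1, as did 93% of all protein-coding loci. Among them were Creb3l3, a liver transcription factor gene, with 49.8% with EnPGC-1 and 17.0% with DMSO, the acyl-CoA dehydrogenase gene Acadvl with 41.2% with EnPGC-1 and 9.12% with DMSO, and the fatty acid transporter gene Cd36 with 1.77% with EnPGC-1 and 0.879% with DMSO.

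The 18 ERR target genes, which share Acadm and Pdk4 with the PPAR list, had medians of 10.6% with EnPGC-1 and 3.42% with DMSO. Of the 18, 16 had more coverage with EnPGC-1 and 2 less, beside 93% and 1.51% of all protein-coding loci. The complex II gene Sdhb had 42.4% with EnPGC-1 and 10.1% with DMSO and Perm1, a muscle partner of PGC-1 and ERR, 46.2% with EnPGC-1 and 14.3% with DMSO. The respiratory chain gene Ndufa4 was listed with 0 intervals with EnPGC-1 and 1 with DMSO. The 11 genes of retinoid enzymes and carriers, which make, break down or carry retinoids, had medians of 12.8% with EnPGC-1 and 2.21% with DMSO. The binding protein gene Crabp1 had 17.2% with EnPGC-1 and 2.21% with DMSO, the retinal dehydrogenase gene Aldh1a3 19.6% with EnPGC-1 and 7.16% with DMSO, and Aldh1a1 0.244% with EnPGC-1 and 0.320% with DMSO. A start interval was present at 13 of 16 PPAR targets, 12 of 15 ERR targets and 5 of 6 retinoid genes with EnPGC-1, and at 7, 10 and 3 of them with DMSO. Of all protein-coding genes with an annotated start, 67.3% had one with EnPGC-1 and 33.5% with DMSO.

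Markers of the labelled cells were present but not prominent. All 8 CD8 T cell genes had intervals in both lists, beside 94.1% of protein-coding loci with EnPGC-1 and 81.1% with DMSO. Cd8a had 6 intervals with EnPGC-1 and 1 with DMSO. The medians of the 8 genes were 10.4% of the locus with EnPGC-1 and 1.92% with DMSO, beside 8.37% and 1.99% over all protein-coding genes. Coverage ranged from 4.69% to 29.1% with EnPGC-1 and from 0.796% to 13.7% with DMSO, with Cd5 and Lck at 29.1% and 16.1% with EnPGC-1 and Cd3e at 5.47%. The 5 B cell genes had higher medians, 27.9% with EnPGC-1 and 4.43% with DMSO, with Cd79a at 33.8% with EnPGC-1 and 4.43% with DMSO and Cd79b at 34.1% with EnPGC-1 and 6.24% with DMSO. Ms4a1 had 0.684% with EnPGC-1 and was listed at 0 with DMSO. The 5 myeloid genes had 8.73% with EnPGC-1 and 2.04% with DMSO, with 17 EnPGC-1 and 11 DMSO intervals at Csf1r, 17 EnPGC-1 and 0 DMSO intervals at Itgam, and 8 EnPGC-1 and 2 DMSO intervals at Adgre1. Coverage by listed intervals thus did not separate genes of the labelled cell type from genes of other cells, and the part of other cells in the receptor values was not tested.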

How the data were processed

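H3K27ac, IgG and input libraries came from CD8+ T cells, grouped by their titles. Per the submitters' processing notes, mm10 was the build, and the tools included MACS2 2.2.2.20160309 for peaks, Bowtie 1.1.2, Trimmomatic 0.38, Picard 0.118 and ChIPseeker 11.16.1. Settings, the control and any pooling of replicates are not stated in the labels used here, nor is it said that replicates were separate animals or cultures. The authors deposited 1 peak list per treatment with a score per peak, read here as -log10 of a q-value because it starts at 1.31 in both lists, beside 1.30 for -log10 of 0.05. Scores served for ranking and filtering within each list, except that the alternative with scores of 3 or more set the same limit in both lists. Where the EnPGC-1 list was reduced, ties in score were broken by width, wider intervals first. Sequencing depth is unknown here and can alter how many peaks are listed and how wide they are.

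Entries repeating 1 interval were combined with their highest score (329623 EnPGC-1 entries into 253423 intervals, 84538 DMSO entries into 81522). Genes and promoters came from RefSeq tables of GRCm38.p6, the assembly behind mm10. Of 21631 protein-coding genes, 17274 had an annotated start. Coverage is the share of a locus inside intervals. A percentile is a gene's rank among all protein-coding loci. Calculations used Python 3.11.15, numpy 2.4.6, pandas 2.3.3 and scipy 1.17.1 and were tested on simulated intervals.

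The receptors, gene lists and alternatives were chosen with earlier results of these data known. Named were the 9 receptors, their neighbours with a start in the locus, 2 genes with the largest and 1 with the most negative difference in coverage per list, and the nearest receptor per family. A gene that this rule names is not reported here. Nr1h2, Nr4a1 and Cd8a were named after their values were seen. Alternatives were higher score limits, equal numbers of intervals, joining intervals within 1000 bp, dropping those shorter than 500 bp, other flanks, start windows and overlap rules, every deposited entry, and equal covered bases, which was added after the values were seen.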

Additional observations from a re-analysis of the deposited data

How the results depend on the processing

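No paired analysis was possible because each treatment has 1 peak list, so replicates could not be left out either, and depth cannot be matched. The EnPGC-1 to DMSO ratio of covered bases over the 9 loci, 3.34, was 3.48 at or above each list's median score, 9.04 with scores of 3 or more, 3.59 merged within 1000 bp, 4.30 without intervals under 500 bp, 3.36, 3.33 and 3.21 with flanks of 0, 10 and 50 kb, 1.62 with equal numbers and 1.02 with equal covered bases. The ratio of interval numbers, 2.34, was 5.85 with scores of 3 or more, 1.69 merged, 3.14 without intervals under 500 bp and 3.33 with every deposited entry, and turned to 0.865 with equal numbers and 0.535 with equal covered bases. Genes marked at the start in the EnPGC-1 list numbered 5 in place of 9 with equal numbers, with equal covered bases, and at or above each median score. In the DMSO list they numbered 2 in place of 5 with scores of 3 or more and without intervals under 500 bp. The share of DMSO intervals overlapping an EnPGC-1 interval, 81.3%, was 36.8% with equal numbers, 55.1% at or above each median score, 63.4% with scores of 3 or more, 24.5% with equal covered bases and 69.7% when 50% of the DMSO interval had to be covered. The difference in coverage stayed positive in 74 of 81 values over the 9 loci and 9 alternatives. Every reversal came with equal numbers or equal covered bases. In the other alternatives the EnPGC-1 list stayed far larger, as with 162315 against 21197 intervals at scores of 3 or more. Positive values there say little about the 9 loci, since 93% of all protein-coding loci had more EnPGC-1 coverage as deposited. The difference turned to -0.23 percentage points at Pparg with equal numbers, where the breaking of a tie in score by width decided the sign. With equal covered bases it turned to -1.18 at Esrra, -1.04 at Esrrb, -0.396 at Pparg, -3.82 at Rxra, -1.78 at Rxrb and -0.171 at Rxrg. The score limits, the length limit, equal numbers and equal covered bases remove intervals by construction, and the cause of the other shifts was not tested.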
